A study of Mus musculus with 24 samples.

Results

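Genes of the G1/S transition and of DNA replication were followed in mouse liver after furan exposure. The group was defined by a list of 36 gene symbols, all of which were found among the 24015 genes of the deposited count table. Female B6C3F1 mice, aged 5 to 6 weeks per the labels, received furan at 8 mg per kg body weight per day in corn oil by gavage for 21 days, or corn oil alone, and their livers were collected 4 h after the last dose. Each liver was cut into a fresh-frozen piece, a piece fixed in formalin for 18 h and a piece fixed for 3 weeks, and both fixed pieces were embedded in paraffin (FFPE). RNA of FFPE pieces came from 1 section (18 h) or 2 sections (3 wk) with a kit of its own, so fixation, kit and input cannot be told apart. Furan is a volatile hepatotoxicant that the liver oxidises to a reactive dialdehyde. The frozen pieces gave 3 furan libraries (animals 41, 43 and 44) and 3 control libraries (02, 04 and 06), and each kind of FFPE piece gave 4 furan libraries (41 to 44) and 4 control libraries (02, 03, 04 and 06). Replicates are separate animals, and pieces with the same number come from 1 liver, so the comparisons in the different pieces share their animals.

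A cell enters S phase when cyclin-dependent kinases inactivate the retinoblastoma protein and free the E2F factors, which switch on the genes of DNA synthesis. The origin recognition complex, Cdc6 and Cdt1 then load the ring of MCM2 to MCM7 onto DNA, and Cdc45 and the GINS complex turn that ring into the replicative helicase. Hepatocytes of adult liver are mostly quiescent and re-enter the cycle after injury or loss of tissue, and many mouse hepatocytes are polyploid.

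Total counts per library were 33101755 to 58048387 in frozen, 16269854 to 22494012 in FFPE 18 h and 3666173 to 11780691 in FFPE 3 wk pieces. RNA integrity numbers were above 8.9 in frozen pieces and 1.3 to 2.4 in FFPE pieces per the labels. All 36 genes had counts in every frozen and every FFPE 18 h library, whereas 20 of them were at 0 in at least 1 FFPE 3 wk library. The 45S ribosomal RNA gene Rn45s took 37.3% of the counts in the FFPE 18 h control library 06 and 6.42% to 7.22% in the other control libraries of that kind. Levels are given as CPM, a gene's share of its library's TMM-scaled total, and fold changes are log2 values of furan over control ± SE unless another pair is named. Adjusted p is the Benjamini-Hochberg value of edgeR's quasi-likelihood test over all genes tested, with a threshold of 0.05. Hepatocyte markers (8 genes, among them Alb and Ttr) summed to 159252 to 168766 CPM in frozen furan and 161837 to 172109 CPM in frozen control libraries. Alb alone reached 125425 CPM in a frozen library, so the sum mostly reflects Alb. In frozen livers 6 of the 8 markers had a log2 fold change below 0 and 2 above, with a median of -0.20.

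In frozen livers, 5 of the 6 MCM ring genes were higher after furan, as were single genes of origin loading, helicase activation, chromatin assembly and maintenance methylation, while thymidine kinase was lower. Of the 35 genes tested, 9 rose (Mcm2, Mcm4, Mcm5, Mcm6, Mcm7, Cdc6, Gins2, Chaf1a and Uhrf1) and 1 fell (Tk1). Over all 13794 genes tested, 8.21% rose and 7.47% fell. The median log2 fold change was 0.33 over the 35 genes and -0.01 over all genes tested, and 29 of the 35 lay above 0. In 14 of the 35 every furan library lay above every control library, against 19% of all genes, and in 1 (Tk1) every furan library lay below, against 18.4%. Orc1, the largest origin recognition subunit, had 0.0517 to 0.492 CPM in furan and 0.0591 to 0.115 CPM in control livers and did not pass the filter on low counts. In 1 model of all 6 groups the log2 fold changes stayed close to these (1.23 for Mcm2, 1.28 for Mcm6) but 0 genes were called, and after thinning every library to the shallowest total 2 rose (Mcm7 and Chaf1a) and 2 fell (Tk1 and E2f8). These are bulk libraries, in which fewer cells of a type and less RNA per cell cannot be told apart.

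**Figure D1:**
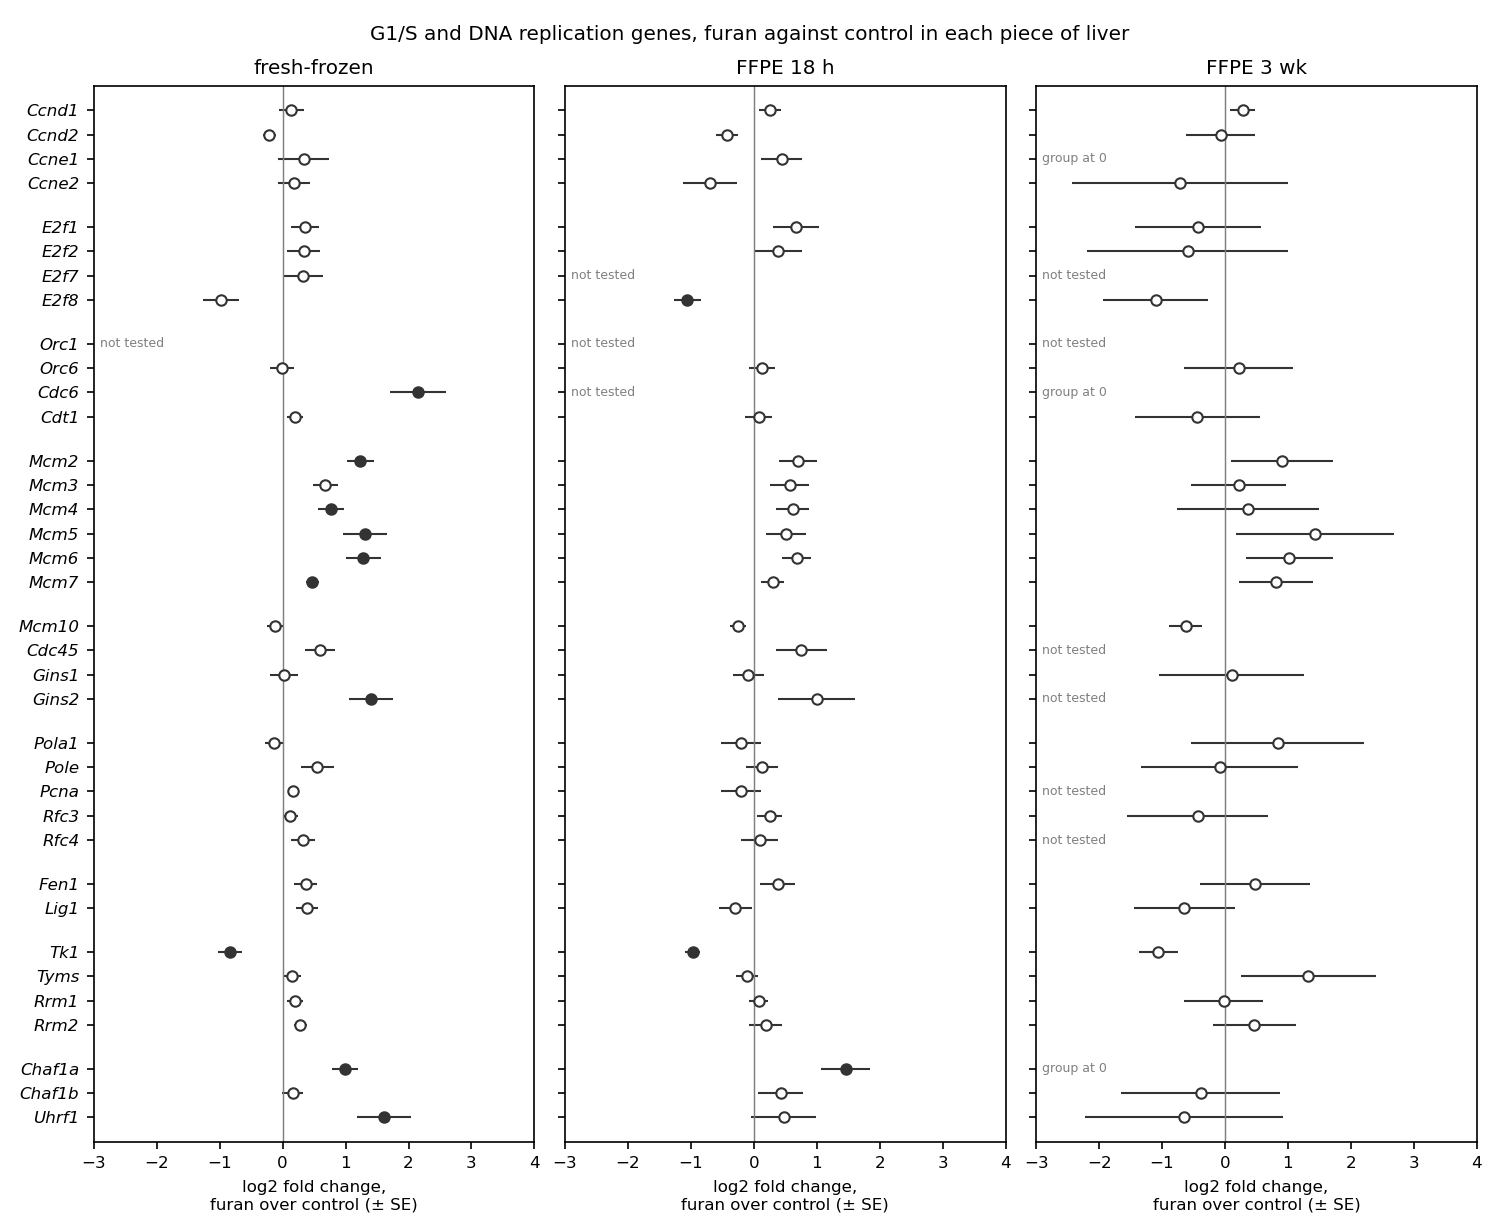
Log2 fold change (furan over control, horizontal axis, bars ± SE) of the 36 genes, ordered by role, in fresh-frozen, FFPE 18 h and FFPE 3 wk livers. Filled points have adjusted p under 0.05: there are 10 such genes in frozen tissue, 3 at 18 h and 0 at 3 wk. Genes that were not tested, or with a whole group at 0 counts, have no point.

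E2F factors are known to switch on many replication genes, so promoters of genes that rose are shown with the letters an E2F site has. RefSeq promoters (build GRCm38.p6, 250 bases before to 50 after each transcript start) were listed for 29 of the 36 genes. The letters TTTGGCGC, TTTGCCGC, TTTCGCGC or TTTCCCGC, on either strand, were present in a promoter of 13 of these 29 genes, against 704 of 27025 genes in the RefSeq promoter table (2.61%). Of the 7 risen genes with a listed promoter, 5 held such letters. The shorter letters TTTGAA or TTCGAA of the cell cycle homology region were present in 7 of the 29 genes and in 21.7% of all genes, and in 11 of 15 mitosis genes with a listed promoter. Printed below, 5′ to 3′ with the E2F letters in capitals, are the 4 promoters with such letters whose genes had the smallest p in frozen livers. In Cdc6 the letters began 138 bases before the transcript start, and in Mcm6 a pair of matches on opposite strands overlapped. A match describes the sequence only.
Cdc6 (chr11:98907901-98908200, plus strand): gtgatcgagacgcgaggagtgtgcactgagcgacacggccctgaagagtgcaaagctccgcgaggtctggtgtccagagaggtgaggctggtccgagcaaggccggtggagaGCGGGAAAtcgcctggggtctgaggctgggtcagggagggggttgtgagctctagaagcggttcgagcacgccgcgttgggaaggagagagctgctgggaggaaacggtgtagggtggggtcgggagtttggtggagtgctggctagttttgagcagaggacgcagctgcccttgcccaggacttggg
Mcm7 (chr5:138171834-138172133, minus strand): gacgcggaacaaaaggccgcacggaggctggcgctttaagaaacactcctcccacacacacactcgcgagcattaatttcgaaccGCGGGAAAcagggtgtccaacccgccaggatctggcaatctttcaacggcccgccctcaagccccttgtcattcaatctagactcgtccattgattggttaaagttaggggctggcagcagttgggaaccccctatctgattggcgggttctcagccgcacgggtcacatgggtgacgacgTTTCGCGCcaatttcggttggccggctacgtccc
Mcm6 (chr1:128359656-128359955, minus strand): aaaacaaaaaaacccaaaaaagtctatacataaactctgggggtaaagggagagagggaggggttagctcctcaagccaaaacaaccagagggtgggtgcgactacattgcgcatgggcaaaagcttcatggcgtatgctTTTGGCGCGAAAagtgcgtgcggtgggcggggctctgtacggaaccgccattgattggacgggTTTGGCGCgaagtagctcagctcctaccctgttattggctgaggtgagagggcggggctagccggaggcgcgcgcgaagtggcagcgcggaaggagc
Uhrf1 (chr17:56304063-56304362, plus strand): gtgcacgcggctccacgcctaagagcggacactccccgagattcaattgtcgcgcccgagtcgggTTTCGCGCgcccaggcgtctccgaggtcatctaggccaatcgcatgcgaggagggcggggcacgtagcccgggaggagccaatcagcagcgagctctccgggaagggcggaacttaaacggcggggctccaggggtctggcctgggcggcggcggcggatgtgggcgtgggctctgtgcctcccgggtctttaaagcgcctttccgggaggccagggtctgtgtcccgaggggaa

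Cyclins that carry cells through G1 were not called in frozen livers. Cyclin D1 (Ccnd1), the partner of CDK4 and CDK6 that starts inactivation of the retinoblastoma protein, had by far the highest level per kilobase of exon in control livers (40.3 CPM per kb, against 0.0257 to 6.90 for the other 35 genes). Exon lengths came from another annotation than the counts and merge the exons of all transcripts, so levels per kb are approximate. Ccnd1 measured 218, 197 and 212 CPM in furan livers 41, 43 and 44, against 141, 167 and 262 CPM in control livers 02, 04 and 06. The groups overlapped because control 06 lay above every furan liver, and the log2 fold change was 0.14 ± 0.20 (adjusted p = 0.678). Without control 06 it was 0.44 (adjusted p = 0.0289), and without control 02 it was -0.04. Of the 6 fits that left out 1 library, 1 passed. Ccnd2, Ccne1 and Ccne2, of which the E cyclins activate CDK2 at S phase entry, had log2 fold changes of -0.21 to 0.33, with adjusted p of 0.205 or more. Exons of Ccnd1 overlap those of Oraov1 on the opposite strand along 23.4% of their length in a later annotation (GENCODE M21), and the kit kept no strand; Oraov1 itself had -0.15 ± 0.09.

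The E2F factors were likewise below the threshold in frozen livers. E2f8, an atypical E2F that represses replication genes and is needed in mice for hepatocytes to become polyploid, had 11.2, 8.84 and 15.4 CPM in furan livers, against 32.8, 21.9 and 15.0 CPM in control livers. Only furan 44 lay above a control value, and the log2 difference was -0.98 ± 0.29 (adjusted p = 0.0553). Without control 06 the difference was -1.21 and passed (adjusted p = 0.0184), and without control 02 it was -0.65. Of the 6 fits that left out 1 library, 1 passed. The activators E2f1 and E2f2 had 0.35 ± 0.22 and 0.33 ± 0.26, and the second atypical repressor, E2f7, had 0.32 ± 0.31.

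Among the loading factors, Cdc6 rose. Cdc6 joins the origin recognition complex to bring MCM rings to DNA. Its level was 0.345, 0.711 and 0.955 CPM in furan livers (20, 30 and 33 counts), against 0.117, 0.154 and 0.158 CPM in control livers (5, 8 and 8 counts). Every furan liver exceeded every control liver, and the log2 fold change was 2.15 ± 0.45 (adjusted p = 0.0186). Cdt1, the other loading factor, and Orc6, an origin recognition subunit, had 0.20 ± 0.13 and -0.02 ± 0.19 and did not pass.

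The MCM2 to MCM7 ring, whose 6 subunits unwind the parental DNA, had 5 of its 6 genes higher. Mcm2 measured 5.36, 8.76 and 10.01 CPM in furan livers 41, 43 and 44, against 3.39, 3.46 and 3.35 CPM in control livers, a log2 fold change of 1.23 ± 0.22 (adjusted p = 0.0104). Mcm6 measured 9.48, 19.0 and 22.3 CPM in furan livers, against 7.17, 6.61 and 6.95 CPM in control livers (1.28 ± 0.27, adjusted p = 0.0198). For both genes the control livers lay close together and furan 41 lay nearest to them. Mcm5 measured 3.41, 7.84 and 10.01 CPM in furan livers, against 3.04, 3.13 and 2.32 CPM in control livers (1.31 ± 0.35, adjusted p = 0.0409). Mcm4 measured 5.02, 7.32 and 9.26 CPM in furan livers, against 4.49, 3.90 and 4.21 CPM in control livers (0.77 ± 0.21, adjusted p = 0.0414). In Mcm4 and Mcm5, furan 41 was only slightly above the highest control liver. Mcm7 had the smallest rise, with 14.4, 15.3 and 16.4 CPM in furan livers, against 12.1, 11.4 and 9.77 CPM in control livers (0.47 ± 0.10, adjusted p = 0.0197). Mcm3 measured 6.38, 9.00 and 11.4 CPM in furan livers, against 5.00, 6.07 and 5.57 CPM in control livers, and missed the threshold (0.67 ± 0.20, adjusted p = 0.0542), which it passed with DESeq2 and without the filter on low counts. In all 6 genes the furan and control livers did not overlap. Summed over the ring, furan livers had 44.1, 67.2 and 79.3 CPM and control livers 32.2 to 35.1 CPM. Mcm2 to Mcm6 overlap no other annotated exon. Mcm7 overlaps exons of Ap4m1 and Cops6, and 23.3% of its 50-base words recur in other genes, mainly Gm5487.

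**Figure D2:**
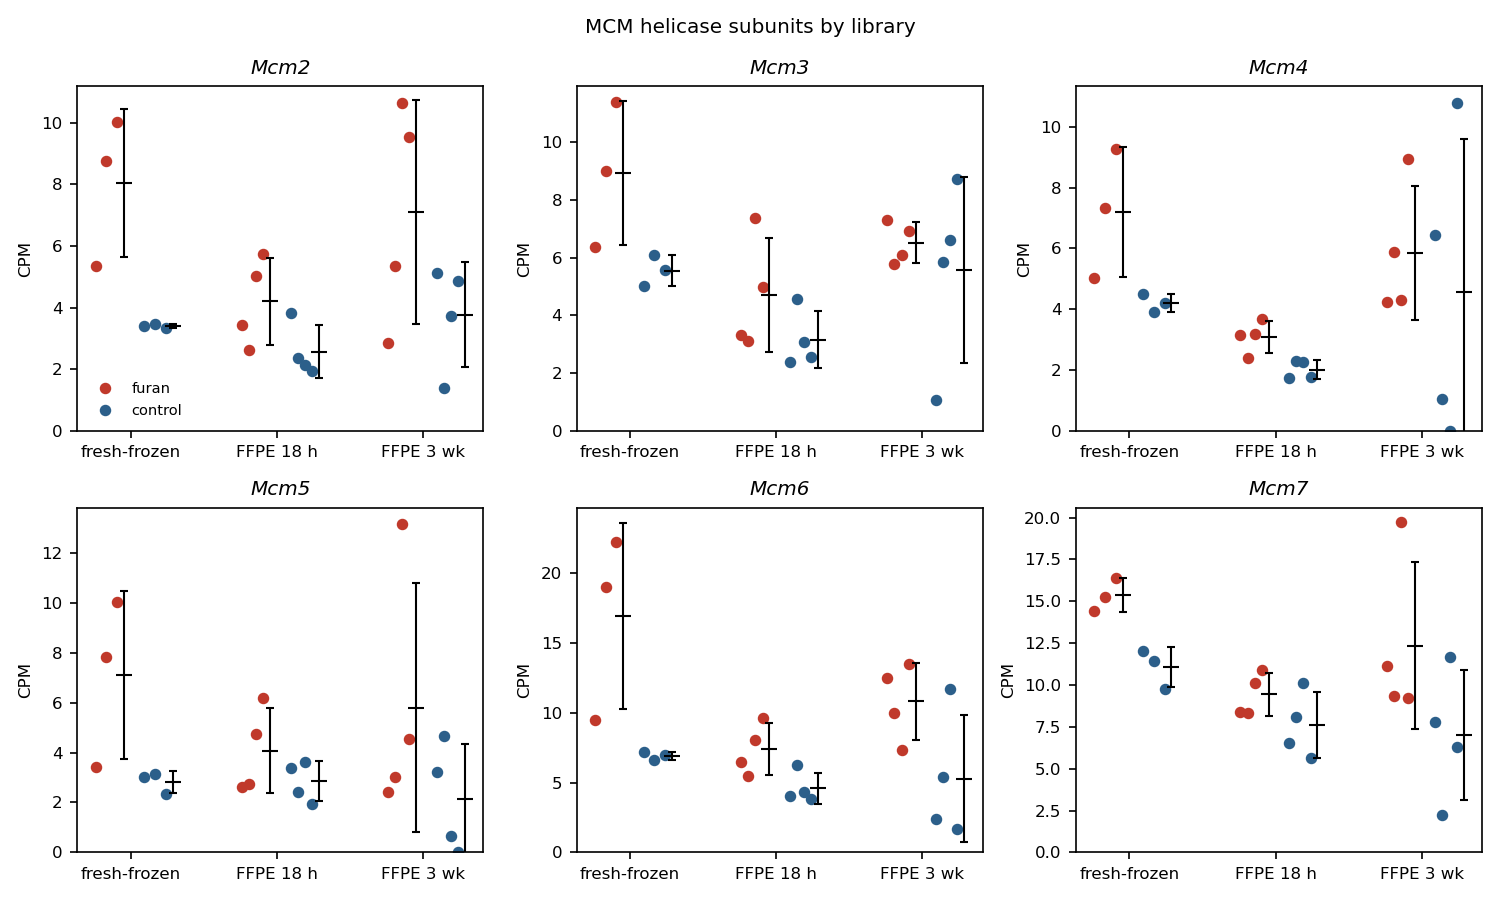
CPM (vertical axis) of the 6 MCM ring genes in each library, by kind of piece, with furan livers in red left of control livers in blue; black bars are mean ± SD, cut at 0. In frozen livers each of the 6 genes is higher in all 3 furan than in all 3 control libraries, and in FFPE livers the groups overlap except for Mcm4 at 18 h.

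Of the genes that turn the loaded ring into an active helicase, Gins2 rose. Gins2, a GINS subunit, had 0.500, 1.02 and 0.695 CPM in furan livers (29, 43 and 24 counts), against 0.210, 0.346 and 0.256 CPM in control livers (9, 18 and 13 counts), a log2 fold change of 1.41 ± 0.35 (adjusted p = 0.032). The groups did not overlap. Exons of Gins2 overlap Gse1 on the opposite strand along 67.3% of their length, and Gse1 had 0.34 ± 0.15 (adjusted p = 0.147). Cdc45, the partner of GINS, had 0.59 ± 0.24 (adjusted p = 0.134), with no overlap between groups. Gins1 had 0.02 ± 0.22 and Mcm10, an activation factor outside the ring, -0.12 ± 0.14.

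None of the 5 polymerase, clamp and clamp loader genes and neither gene of Okazaki fragment processing passed. Pcna, the sliding clamp that holds polymerases on DNA and a common proliferation marker, had 9.81, 10.7 and 10.8 CPM in furan livers, against 9.28, 9.59 and 9.08 CPM in control livers. The groups did not overlap, but the difference was 0.16 ± 0.08 (adjusted p = 0.214). Pcna shares 19.1% of its 50-base words with other genes, mainly Pcna-ps2. Pole, the catalytic subunit of the leading-strand polymerase, had 0.55 ± 0.26, and the other 3 (Pola1, Rfc3 and Rfc4) lay between -0.14 and 0.33. The flap nuclease Fen1 had 0.37 ± 0.18 and the ligase Lig1 0.38 ± 0.17, with adjusted p of 0.208 and 0.166. Exons of Fen1 overlap Gm10143 and Tmem258 on the opposite strand along 84.2% of their length.

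Of the 4 nucleotide supply genes, 1 passed, and it fell. Thymidine kinase (Tk1), which salvages thymidine for DNA synthesis, fell: it measured 8.46, 9.81 and 11.6 CPM in furan livers, against 15.7, 14.4 and 22.9 CPM in control livers. Every furan liver lay below every control liver, and the log2 fold change was -0.83 ± 0.19 (adjusted p = 0.023). Its neighbour Afmid, with which Tk1 shares 83 nt of exon on the opposite strand, was also lower, at -0.44 ± 0.12 (adjusted p = 0.0433); Afmid was looked up after the values of Tk1 were seen. Tk1 counts were 0.0725 to 0.0869 per Afmid count in furan and 0.0992 to 0.117 in control livers, and the part of shared reads was not tested. The ribonucleotide reductase genes Rrm1 and Rrm2 had 0.19 ± 0.12 and 0.28 ± 0.11, and thymidylate synthase (Tyms) had 0.15 ± 0.14, none past the threshold.

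Chromatin assembly and maintenance methylation contributed Chaf1a and Uhrf1. Chaf1a, the large subunit of the histone chaperone CAF-1, had 2.60, 3.48 and 4.34 CPM in furan livers, against 1.66, 1.90 and 1.63 CPM in control livers, a log2 fold change of 0.99 ± 0.20 (adjusted p = 0.0176). Uhrf1, which brings the methyltransferase DNMT1 to newly replicated DNA, had 0.931, 2.39 and 3.39 CPM in furan livers, against 0.748, 0.768 and 0.630 CPM in control livers (1.61 ± 0.43, adjusted p = 0.0405). Neither gene overlapped between groups, and in Uhrf1 furan 41 stood close to the control livers. Uhrf1 shares 15.4% of its 50-base words with other genes, mainly Gm5648. Exons of Chaf1a overlap Ubxn6 on the opposite strand along 52.5% of their length, and Ubxn6 had -0.10 ± 0.06 (adjusted p = 0.298). Chaf1b, the second CAF-1 subunit here, had 0.16 ± 0.17.

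**Figure D3:**
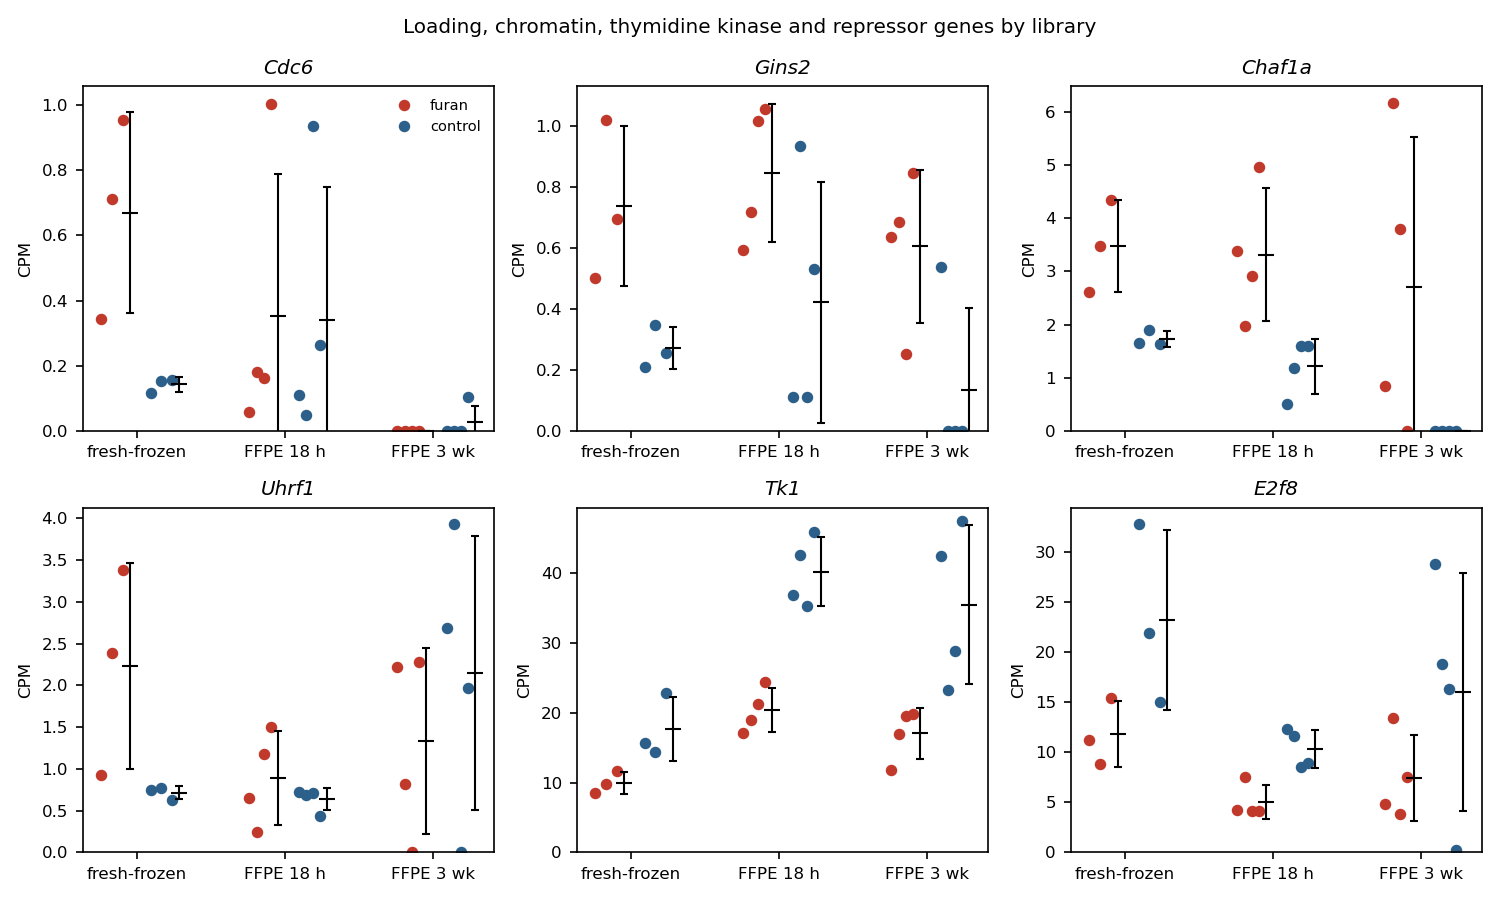
CPM (vertical axis) of Cdc6, Gins2, Chaf1a, Uhrf1, Tk1 and E2f8 in each library, by kind of piece, with furan livers in red left of control livers in blue; black bars are mean ± SD, cut at 0. Tk1 is lower in every furan library than in every control library of the same kind, and Chaf1a is at 0 in all 4 FFPE 3 wk control libraries.

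The furan livers differed among themselves in a common order. Furan 41 was the lowest of the 3 for all 9 risen genes, and furan 44 the highest for 8 of 9, with Gins2 as the exception. Over all 36 genes, furan 41 was lowest for 28 and furan 44 highest for 26, so the order was not particular to the risen genes. Total counts ran in the opposite order, at 58048387, 40698987 and 33101755 in furan 41, 43 and 44. Rn45s took 0.129%, 0.155% and 0.52% of them. The part of depth in the order was not tested. Relative to the control mean, Mcm6 stood at 1.37 in furan 41, 2.75 in furan 43 and 3.22 in furan 44, and Cdc6 at 2.42, 4.98 and 6.69. The inhibitor Cdkn1a (p21), in contrast, stood at 31.8, 32.8 and 30.0 in the same livers. With 3 livers a group, calls depended on single libraries: without furan 41 there were 10 risen genes, without furan 43 there was 1, without furan 44 there were 2, without control 02 there were 2, without control 04 there were 3 and without control 06 there were 6. Mcm2 passed in all 6 of these fits, Mcm7 and Chaf1a in 4, Cdc6 and Mcm6 in 2, and Mcm4, Mcm5, Gins2 and Uhrf1 in 1. Tk1 passed in 4 of the 6 and not without furan 41 (-0.71, adjusted p = 0.0777) or furan 43 (-0.81, adjusted p = 0.0853).

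**Figure D4:**
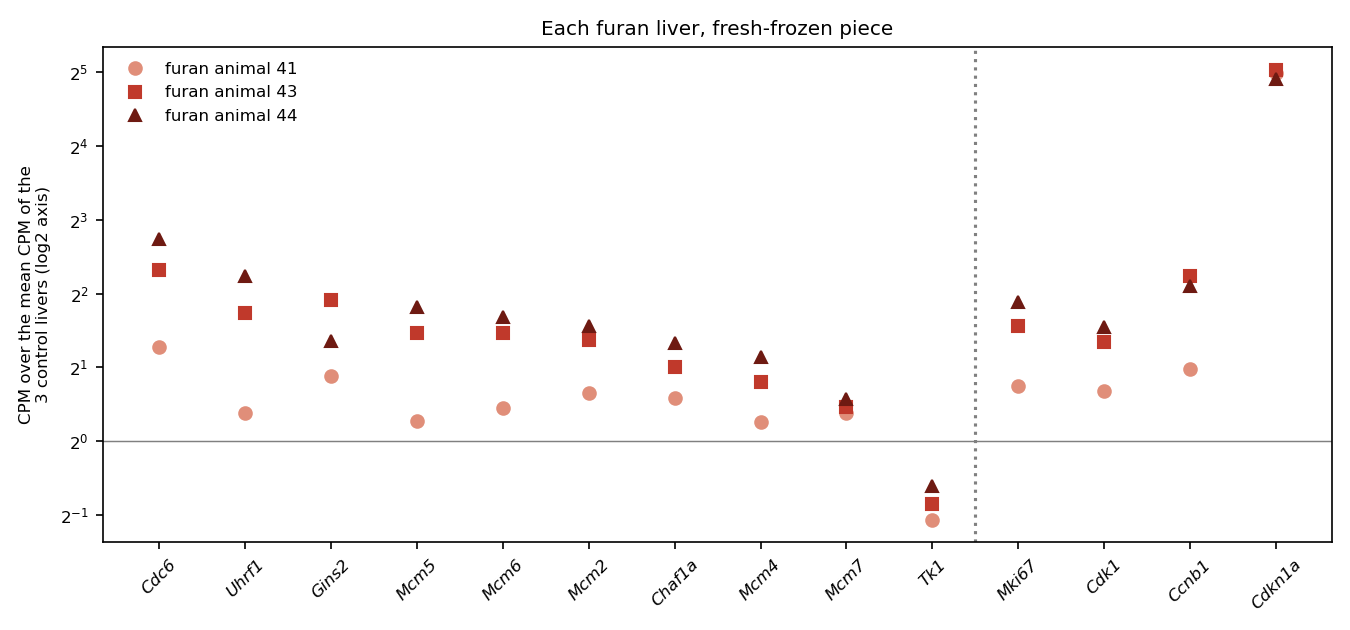
CPM in each frozen furan liver divided by the mean CPM of the 3 frozen control livers (vertical axis, log2 scale) for the 10 called genes and, right of the dotted line, Mki67, Cdk1, Ccnb1 and Cdkn1a. Furan animal 41 is lowest for the 9 risen genes and the 3 mitosis genes, while Cdkn1a lies between 30.0 and 32.8 in all 3 livers.

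Genes of later cycle phases and other replication genes were compared with the same fit. Of 20 mitosis genes, 13 rose and 0 fell in frozen livers, with a median of 1.41. The proliferation marker Mki67 had 6.05, 10.7 and 13.3 CPM in furan livers, against 3.48, 4.65 and 2.72 CPM in control livers (1.46 ± 0.30, adjusted p = 0.0176). The mitotic kinase Cdk1 and its partner cyclin B1 (Ccnb1) rose by 1.21 ± 0.26 and 1.84 ± 0.43. Furan 41 was lowest of the furan livers for all 20 mitosis genes, as for the risen replication genes. Of 69 tested G1/S and replication genes outside the 36, 7 rose and 5 fell, and their median of 0.08 lay close to that of all genes. The inhibitor Cdkn1a had 26.8, 27.6 and 25.3 CPM in furan livers, against 0.818, 0.922 and 0.788 CPM in control livers (4.97 ± 0.10, adjusted p = 2.9e-07). The chromatin remodeller Hells rose by 1.22 ± 0.20, the CDC7 activator Dbf4 by 0.73 ± 0.13 and the CDK phosphatase Cdc25a by 0.42 ± 0.10.

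Markers of hepatocytes and of other cells a liver piece can hold were followed in 9 lists, and 0 of their 47 tested genes rose in frozen livers and 5 fell. Of the 8 hepatocyte markers 1 fell, as 1 did in FFPE 18 h and in FFPE 3 wk livers. The sinusoidal endothelial list fell in 4 of 7 genes, and its sum was 272 to 333 CPM in furan and 390 to 400 CPM in control livers, with no marker at 0 in any frozen library. The macrophage list had no call among 9 genes, and its sum was 297 to 374 CPM in furan and 273 to 736 CPM in control livers. The median sums were 348 CPM in furan and 318 CPM in control livers, so 1 control liver lay far above the others. Neutrophil markers were too low to test. The erythroid list summed to 28.0 to 29.2 CPM in furan and 24.6 to 29.6 CPM in control livers, with no call. Its markers Alas2 and Klf1 had counts in every frozen library, reaching 26.6 and 5.63 CPM. Hba-a1 and Hbb-b1 were at 0 in all 6 frozen libraries and in every FFPE library, for a reason that was not tested. The part of cell composition in the replication gene results was not tested.

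In FFPE 18 h livers, 1 of 33 tested genes rose (Chaf1a) and 2 fell (Tk1 and E2f8), against 3.92% and 4.47% of all 12832 genes tested. Furan and control libraries were without overlap in 2 genes upwards (Mcm4 and Chaf1a), against 7.96% of all genes, and in 2 downwards, against 7.78%. The median log2 fold change was 0.25 over the 33 genes, of which 23 lay above 0, and -0.01 over all genes. Chaf1a had 3.38, 1.98, 2.92 and 4.97 CPM in furan livers 41 to 44, against 0.501, 1.18, 1.60 and 1.59 CPM in control livers 02, 03, 04 and 06 (1.46 ± 0.39, adjusted p = 0.0361). Its call was lost without control 02 or 03 or furan 41, 43 or 44, where adjusted p was between 0.0708 and 0.134, and among animals that also have a frozen library (adjusted p = 0.0667). Tk1 had 17.1, 18.9, 21.2 and 24.4 CPM in furan livers, against 36.9, 42.6, 35.4 and 45.9 CPM in control livers (-0.97 ± 0.12, adjusted p = 0.000476). E2f8 had 4.27, 7.54, 4.09 and 4.17 CPM in furan livers, against 12.3, 11.7, 8.49 and 8.92 CPM in control livers (-1.06 ± 0.22, adjusted p = 0.0108). Both genes were lower in every furan library and passed in all 8 fits that left out 1 library. In the model of all 6 groups Tk1 passed (adjusted p = 0.0203) and E2f8 and Chaf1a did not, and after thinning E2f8 did not (-0.83, adjusted p = 0.187). Afmid was lower here too, at -0.47 ± 0.10 (adjusted p = 0.0144). Tk1 counts were 0.155 to 0.188 per Afmid count in furan and 0.240 to 0.267 in control livers.

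The MCM ring genes lay above 0 in FFPE 18 h livers without a call. Their log2 fold changes ran from 0.30 to 0.70, and the smallest adjusted p was that of Mcm6 (0.0836). Their sum was 24.7 to 41.1 CPM in furan and 17.7 to 26.0 CPM in control livers. Mcm2 had 3.44, 2.63, 5.03 and 5.72 CPM in furan livers, against 3.84, 2.36, 2.15 and 1.94 CPM in control livers, so the groups overlapped (0.70 ± 0.30, adjusted p = 0.181). Mcm4 had 3.14, 2.39, 3.20 and 3.66 CPM in furan livers, against 1.72, 2.31, 2.26 and 1.77 CPM in control livers (0.62 ± 0.26, adjusted p = 0.167). Furan 44 was the highest furan library for all 9 genes that had risen in frozen livers, and furan 42, which has no frozen library here, was the lowest for 6 of them. Cdc6 was not tested, with 1 to 20 counts in furan and 1 to 17 counts in control libraries. Pcna had -0.20 ± 0.32 and Ccnd1 0.25 ± 0.18. Ccnd1 was highest in control 06 (201 CPM, against 96.4 to 125 CPM in the other 3 control livers), and without that library it rose by 0.52 (adjusted p = 0.00366). Without control 02 its log2 fold change was 0.13, and 1 of the 8 fits that left out 1 library passed. Of the mitosis genes, 0 of 19 were called, with a median of 0.87 and all above 0. Among the 64 other pathway genes tested, 2 rose and 1 fell, with Cdkn1a at 4.31 ± 0.14. The endothelial list fell in 2 of 7 genes, with a sum of 242 to 276 CPM in furan and 321 to 363 CPM in control livers.

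In FFPE 3 wk livers, 0 of 28 tested genes rose and 0 fell, against 0.298% and 0.522% of all 12064 genes tested. By unadjusted p under 0.05 there were 1 upwards (Ccne1) and 2 downwards (Tk1 and Mcm10), and DESeq2 called 2 upwards (Ccne1 and Chaf1a). The common dispersion was 0.336, against 0.0284 in FFPE 18 h and 0.0150 in frozen livers. The median log2 fold change was 0.04 over the 28 genes, also with Ccne1 at its bound, and 0.02 over all genes. The groups did not overlap in 1 gene upwards (Ccne1), against 4.56% of all genes, and in 1 downwards (Tk1), against 4.25%. Cyclin E1 (Ccne1) had 23, 23, 17 and 37 counts in furan livers 41 to 44 and 0 in each of the 4 control livers (adjusted p = 0.121). For counting error alone, that is at least 34.8-fold higher against a floor of 3 counts over the control group. The same gene had 2.79, 3.91 and 2.32 CPM in frozen furan livers, against 1.24, 1.83 and 4.06 CPM in frozen control livers. Chaf1a had 8, 45, 15 and 0 counts in furan livers and 0 in each control liver, and did not pass the filter for a test. Its bound against that floor was 23.6-fold. Both bounds leave out the spread between libraries, so they are no lower limits on a furan effect. Control libraries of this kind held, for example, 0, 127, 0 and 0 counts of Rfc4. FFPE 18 h pieces of the same control livers held 28 to 47 counts of Ccne1 and 9 to 29 counts of Chaf1a. Tk1 had 11.9, 17.0, 19.5 and 19.8 CPM in furan livers, against 42.5, 23.3, 28.8 and 47.5 CPM in control livers (-1.06 ± 0.31, adjusted p = 0.153), while Afmid had -0.68 ± 0.16 (adjusted p = 0.0555). Tk1 counts per Afmid count overlapped here, at 0.116 to 0.158 in furan and 0.125 to 0.227 in control livers. In the model of all 6 groups Tk1 passed (-1.09, adjusted p = 0.00289), and so did Ccne1.

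The MCM ring genes again lay above 0 in FFPE 3 wk livers, from 0.22 to 1.43, none passing. Their sum was 39.4 to 61.2 CPM in furan livers and 20.6 to 34.4 CPM in control livers. Furan 41 was the lowest furan library for 3 of the 6 ring genes here, against all 6 in frozen livers. Single genes varied widely, as for Mcm4, which had 4.24, 5.90, 4.30 and 8.95 CPM in furan livers, against 6.45, 1.06, 0 and 10.8 CPM in control livers. Cdc6 had 0 counts in each furan library and 1 count in 1 control library, below the floor of 3 counts in both groups. Ccnd1 had 0.28 ± 0.20. E2f8 had 4.87, 13.4, 3.79 and 7.52 CPM in furan livers, against 28.8, 18.8, 16.3 and 0.207 CPM in control livers, so 1 control liver lay far below the rest (-1.10 ± 0.83). Cdkn1a was the 1 other pathway gene of 60 that rose (4.12 ± 0.30, adjusted p = 7.88e-06), and 0 of 11 tested mitosis genes were called. The endothelial sum was 373 to 400 CPM in furan and 442 to 523 CPM in control livers, with 0 of 7 genes called.

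Whether the furan response itself differed between pieces was tested as an interaction. Between FFPE 18 h and frozen livers, 0 of 35 tested genes were called (0% of 13739 genes in either direction), 0 had an unadjusted p under 0.05, and DESeq2 called 0 of them. Between FFPE 3 wk and frozen livers, 0 of 33 were called (0% of 13156 genes), 2 had an unadjusted p under 0.05 (Ccne1 and Chaf1a, each with all FFPE 3 wk control libraries at 0), and DESeq2 called Ccne1 (adjusted p = 0.00245). In the FFPE 18 h comparison the MCM ring genes had differences of -0.79 to -0.09, with SE of 0.23 to 0.50, and none had a p under 0.05, which does not show that the responses were alike. The difference was -0.13 ± 0.24 for Tk1 and -0.07 ± 0.38 for E2f8.

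Levels also differed between kinds of piece in control livers. Comparing FFPE 18 h with frozen control pieces, 7 of 32 tested genes were higher and 5 lower, against 34.2% and 33.8% of all 13034 genes tested, so the shares among these genes were below those of all genes. The higher genes were Gins1 (2.00 ± 0.28), Tk1 (1.46 ± 0.17), Mcm10, Orc6, Tyms, Rfc3 and Ccnd2, and the lower ones Pcna (-1.58 ± 0.24), Pola1 (-1.25 ± 0.24), E2f8, Mcm4 and Rrm1. With the animal as a block, 7 were higher and 9 lower, and without FFPE control 03 there were 8 lower. In the model of all 6 groups only Gins1, Tk1 and Mcm10 of these passed. Pcna measured 1.61, 3.59, 2.87 and 2.03 CPM in FFPE 18 h control pieces, against 9.28, 9.59 and 9.08 CPM in frozen control pieces. Tk1 measured 35.4 to 45.9 CPM in FFPE 18 h and 14.4 to 22.9 CPM in frozen control pieces.

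Comparing FFPE 3 wk with frozen control pieces, 1 of 32 tested genes was higher (Mcm10, 1.31 ± 0.31) and 3 were lower, against 13.2% and 13% of all 12145 genes tested. The lower genes were Pcna (-4.19 ± 1.35, with 2, 15, 0 and 0 counts in FFPE libraries), Ccne1, at least 26.6-fold lower, and Chaf1a, at least 19.0-fold lower, against a floor of 3 counts over the FFPE group. That floor covers counting error only, not the spread between libraries. With the animal as a block, 2 were higher and 1 lower, and Ccne1 and Chaf1a did not pass (adjusted p = 0.189 and 0.251). Pcna did not pass with RLE scaling or without the filter on low counts (adjusted p = 0.0515 and 0.0669). The call counts ran from 0 to 2 higher and from 0 to 4 lower when each library was left out; without frozen control 02 there were 0 in either direction, without frozen control 04 or 06 there were 1 and 0, and without FFPE control 03 there were 2 and 4.

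**Figure D5:**
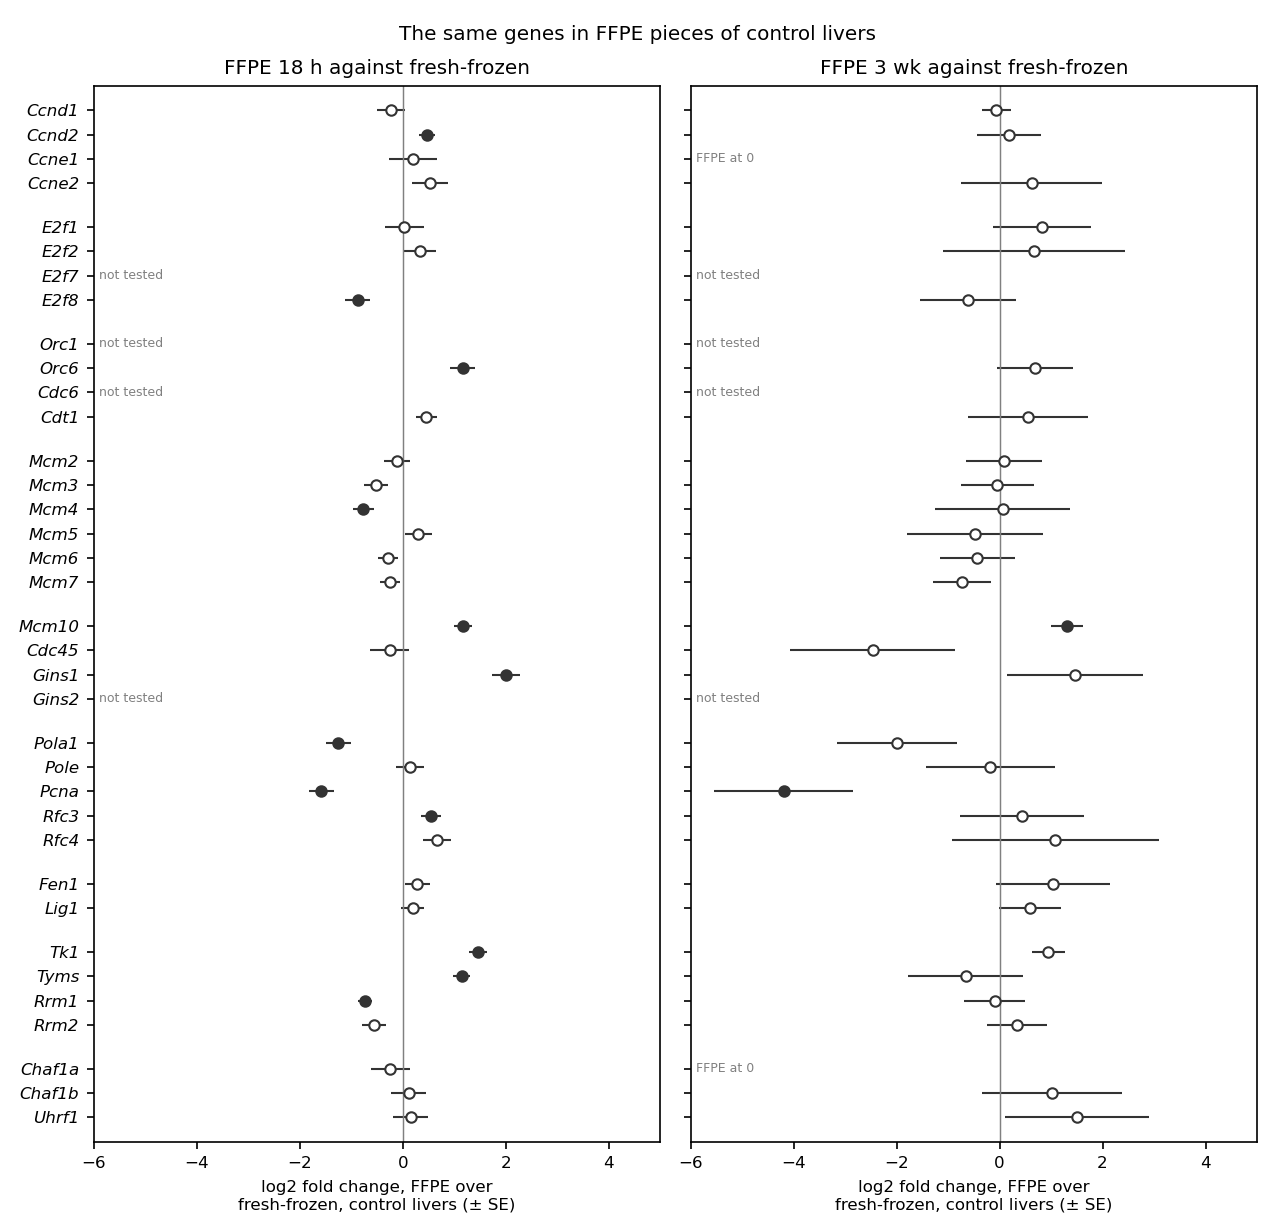
Log2 fold change (FFPE over fresh-frozen pieces of control livers, horizontal axis, bars ± SE) of the 36 genes, ordered by role, for FFPE 18 h and FFPE 3 wk pieces. Filled points have adjusted p under 0.05, and Pcna is called lower and Mcm10 higher in both panels.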

How the data were processed

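Poly(A) RNA was sequenced from frozen and FFPE pieces of livers of furan and control mice. Per the submitters' processing notes, the authors used CASAVA 1.8.2, STAR 2.3.0 and featureCounts 1.4.4 with mouse build mm9, and they deposited raw integer counts per gene symbol; the strand setting of counting is not given in the sources used here. Of 24 columns, 22 matched a labelled sample by kind of piece and animal number; the other 2 were not used, and fresh-frozen animals 03 and 42 were not analysed here. Each comparison was fitted on its own libraries with edgeR 4.0.16 in R 4.3.3: filterByExpr, TMM scaling, quasi-likelihood F test, Benjamini-Hochberg adjustment over all genes tested, threshold 0.05. An SE was taken as the size of the log2 fold change divided by the root of its F value. The furan comparisons and the interactions, but not the comparisons of control pieces, were also run on simulated counts. Those counts were drawn from the kind of model that the fit assumes, so they do not test that model.

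Same-numbered pieces come from 1 animal, so the numbers pair pieces; deviations from group means correlated at r of 0.438 to 0.566 between FFPE 18 h and frozen pieces, and 0.102 to 0.333 between FFPE 3 wk and frozen pieces. No library pair within a group was a duplicate (smallest chi-square per degree of freedom 9.73). Exon lengths, overlapping exons and shared 50-base words came from GENCODE M21, a later build, matched by symbol, and promoters from RefSeq GRCm38.p6.

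The 36 genes and the other lists were chosen with earlier results of these data known. Values by library are given for called genes, Ccnd1 and Pcna, for up to 4 other pathway genes with the smallest p plus Cdkn1a (1 of them is not reported here), and for Mki67, Cdk1 and Ccnb1; Mcm3, Oraov1, Afmid, Gse1, Ubxn6 and values of Ccne1 and of called genes in other pieces were added after values were seen. Floors of 3 counts cover counting error only. Alternatives were DESeq2 1.42.0, RLE scaling, no filter, 1 model of all groups, thinning to 3666173 counts, the animal as a block, FFPE libraries of animals with a frozen library only, and each library left out.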

Additional observations from a re-analysis of the deposited data

Results flagged for a closer look

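Of 72 sets of 4 libraries examined (13 genes with values by library, sums over genes, totals and the Rn45s share), 7 held 1 library far from the other 3, of which 2 rest on counts below the floor; chance gives about 1 in 20. In FFPE 18 h furan livers, E2f8 was 7.54 CPM in animal 42 and 4.09 to 4.27 CPM in the others, and Cdc6 was 1.00 CPM in animal 44 and 0.0593 to 0.180 CPM in the others. In FFPE 18 h control livers, Uhrf1 was 0.442 CPM in animal 06 and 0.688 to 0.723 CPM in the others, and the same library had 37.3% of its counts on Rn45s, against 6.42% to 7.22%. In FFPE 3 wk control livers, Cdc6 was 0.104 CPM in animal 06 and Gins2 was 0.538 CPM in animal 02, and both genes were at 0 in the other 3. These values are 1 and 2 counts, below the floor of 3 counts, and with the other libraries at 0 any count stands apart, so neither shows a difference. The FFPE 3 wk control library 02 had 3666173 counts in total, against 9708205 to 10481659 in the other control libraries of that kind. Causes were not tested.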

How the results depend on the processing

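Counts of called genes are given here as higher and lower. In frozen livers, 9 and 1 became 10 and 2 without a filter on low counts, 0 and 0 in 1 model of all 6 groups, and 2 and 2 after thinning to the shallowest total; leaving out each library gave 1 to 10 higher and 0 to 2 lower. In FFPE 18 h livers, 1 and 2 became 0 and 1 in the single model and 1 and 1 after thinning, and leaving out each library gave 0 to 2 higher and 2 to 3 lower. In FFPE 3 wk livers, 0 and 0 became 2 and 0 with DESeq2 and 2 and 2 in the single model, and leaving out each library gave 0 and 0. The interaction of FFPE 3 wk and frozen livers called 1 gene with DESeq2 and 1 in the single model instead of 0. For control pieces at 18 h, 7 and 5 became 3 and 0 in the single model, 3 lower after thinning, and 7 and 9 with the replicate block; leaving out each library gave 5 to 7 higher and 5 to 8 lower. For control pieces at 3 wk, 1 and 3 became 2 higher with DESeq2, in the single model, after thinning and with the replicate block, and 1 lower after thinning and with the replicate block; leaving out each library gave 0 to 2 and 0 to 4. The block changed no call in either interaction. The single model estimates 1 spread over libraries whose dispersions differ; other causes were not tested. Leaving out the 2 shallowest FFPE 3 wk libraries, chosen after their totals were seen, gave 0 and 0 in the furan comparison. No called value changed sign under any of these settings. In the FFPE 3 wk comparison 8 of the 36 genes were too low to test.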
